A study of Mus musculus with 3 samples.

Results

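The genes of the activin, inhibin and follistatin system described here are Inha, Inhba, Inhbb, Fst, Fstl3, Fstl1, Acvr2a, Acvr2b and Acvr1b, 9 of the 18738 genes listed in at least 1 of 3 single-cell count tables. They were listed by name, as the subunits, binding proteins and receptors of 1 signalling system. For each gene the unique molecular identifiers (UMIs, 1 per captured RNA molecule) were summed over all kept cells of a cell class in a lot and scaled to the class's total, which gives a level in CPM (UMIs of the gene per 1000000 UMIs of the class). The share of cells with at least 1 UMI of the gene was also counted.

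Activins are dimers of beta subunits, encoded by Inhba and Inhbb, and inhibins join the alpha subunit, encoded by Inha, to a beta subunit. Activins bind a type II receptor, which recruits and phosphorylates a type I receptor, and the signal passes through Smad2 and Smad3 with Smad4 to the nucleus. Inhibins hold type II receptors without giving this signal, and follistatin traps activins outside the cell, so that supporting cells of the gonad that make these proteins can tune the signal for themselves and their neighbours.

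The cells were fetal ovarian somatic cells (FOSCs) of CD1 mice (Charles River strain code 022) at E12.5, frozen in lots and thawed before capture. Each lot pooled the ovaries of the embryos of 10 pregnant mice, from which the mesonephros was cut away before trypsin digestion and magnetic depletion of cells that bound SSEA1 or CD31 antibodies. Lots 26, 29 and 30 received the same handling and are 3 samples of 1 condition. No allele or agent set them apart, so cell classes were compared within them, and a p-value measures the spread between 3 pooled lots and not between animals.

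The tables held 87494974 to 141920060 UMIs per lot, and 28971 of 29103 barcodes had 200 to 9000 genes and at most 10% mitochondrial UMIs. Lot 29 was the shallowest, with a median of 8949 UMIs per kept cell against 11126 in lot 26 and 11595 in lot 30, and 19 to 30 kept barcodes were shared between any pair of lots. Cells were clustered without the 9 genes and their pathway and named from other marker genes. The classes were pre-granulosa-like (11855 cells), epithelial-like (6140), stromal-like (6498), germ-like (1472), Sertoli-like (391), endothelial-like (349), red blood cell-like (77), mesonephric tubule-like (76) and chromaffin and Schwann-like (42, too few in 2 lots to be tested), while 2071 cells stayed unnamed. Of each class's own markers, 6 of 8 were highest in pre-granulosa-like cells, 6 of 7 in epithelial-like, 5 of 6 in mesonephric tubule-like cells, and every listed marker in the other 5 classes tested. Sertoli cells are the supporting cells of the testis, and Y-linked UMIs were found in 75.2% to 93.8% of Sertoli-like cells of a lot, although the lots are labelled as ovarian. Y-linked UMIs were also found in 1058 cells outside this class. Per lot, they were in 0.44% to 8.69% of epithelial-like, 1.40% to 13.99% of stromal-like and 2.30% to 34.1% of endothelial-like cells. Lot 29 held the highest share of each, and pre-granulosa-like cells had 0.04% to 0.79%. Heat shock genes led 1 pre-granulosa-like cluster (cluster 2), of whose 3201 cells 2937 came from lot 30, and cluster 3, with 2641 cells, held the most stromal-like cells. Scrublet called 1548 kept cells doublets, of which 109 were pre-granulosa-like, 467 epithelial-like, 618 stromal-like, 198 germ-like, 58 endothelial-like and 47 Sertoli-like. Relative to class size, doublets were among these classes most frequent in endothelial-like, germ-like and Sertoli-like and rarest in pre-granulosa-like cells.

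The classes differed in which of these genes were high. Pre-granulosa-like cells were highest in Fst and Fstl3, Sertoli-like cells in Inha and Inhbb, and stromal-like cells in Fstl1 and, with the small mesonephric tubule-like class, in Inhba. Germ-like cells were below the mean of the 3 large somatic classes in all 6 ligand subunit and binding protein genes. The means of the type II receptor genes varied least between the 6 classes with over 100 cells.

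**Figure D1:**
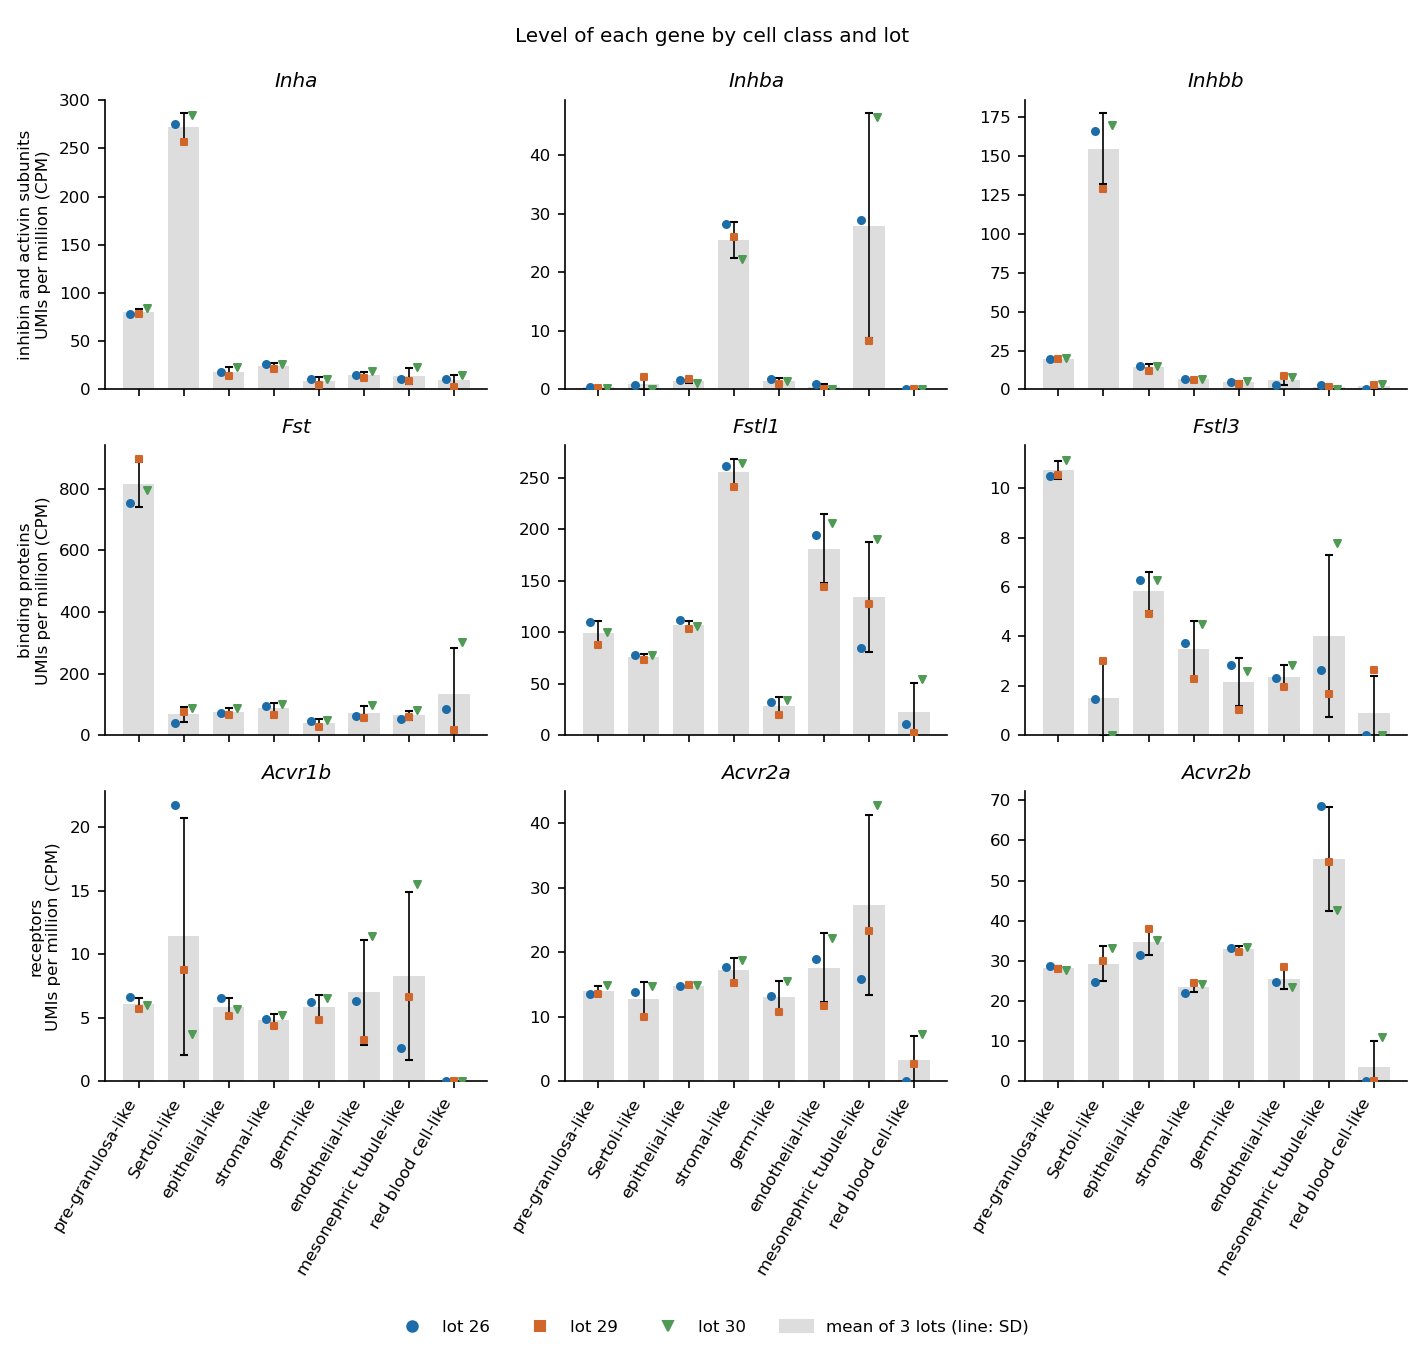
Level of each gene in 8 cell classes (CPM of summed UMIs, linear axis from 0, 1 panel per gene with its own scale). Bars are means over 3 lots, lines the SD and points the lots. Fst stands out in pre-granulosa-like cells (mean 814 CPM) and Inha and Inhbb in Sertoli-like cells (272 and 155 CPM).

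All 9 genes passed the filter on low counts and were tested among 13642 genes over 24 sums of 1 class in 1 lot, with edgeR's quasi-likelihood test and Benjamini-Hochberg adjustment at 0.05. In pre-granulosa-like against epithelial-like cells, 4 of the 9 genes were higher and 1 was lower, where 46.0% of all genes tested passed (23.6% higher, 22.5% lower). Against stromal-like cells, 5 were higher and 2 were lower in pre-granulosa-like cells, beside 49.3% of all genes (25.0% higher, 24.4% lower). Stromal-like cells had 2 genes higher and 3 lower than epithelial-like cells, beside 31.4% (16.5% higher, 14.8% lower). With such shares of all genes passing, nothing was read from these counts about the 9 genes as a set, and the results lie in which genes differed and by how much.

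Sertoli-like cells had 4 of the genes higher and 2 lower than pre-granulosa-like cells, beside 37.5% of all genes (17.7% higher, 19.8% lower). Germ-like cells, set against the mean of the 3 large somatic classes, had none higher and 6 lower, where 77.8% of all genes passed (36.9% higher, 40.9% lower). Endothelial-like cells, set against the same mean, had 1 gene higher and 5 lower, beside 42.2% of all genes (19.8% higher, 22.4% lower). The median log2 fold change of the 9 genes was -1.43 in germ-like and -1.14 in endothelial-like cells, against -0.08 and -0.07 over all genes tested. In the 4 comparisons between single classes the median of the 9 genes lay between -0.04 and 0.44.

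**Figure D2:**
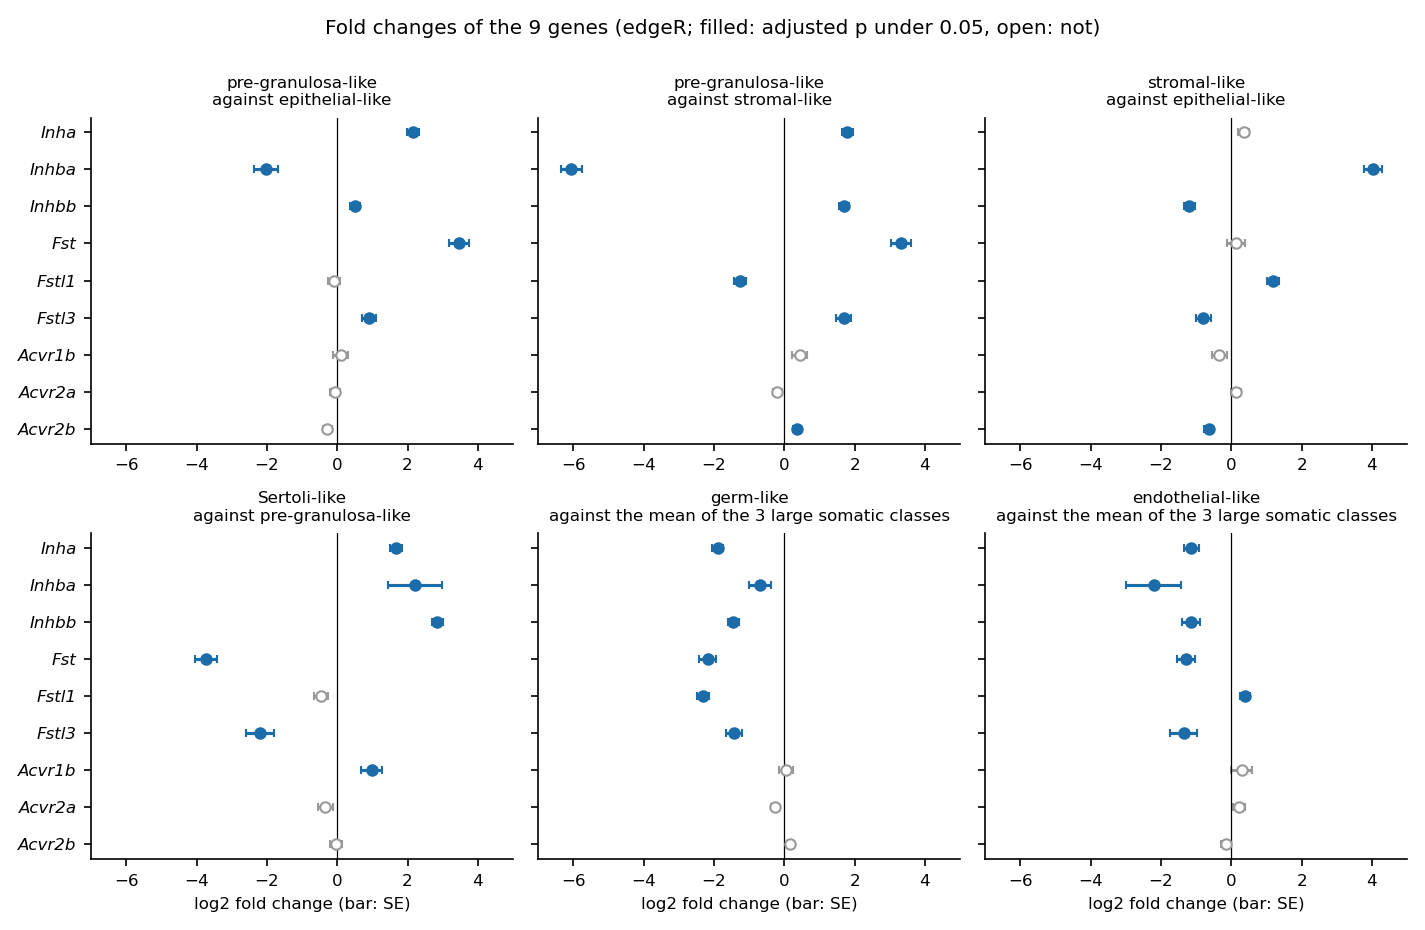
Log2 fold change of the 9 genes in the 6 comparisons of cell classes (points, lines are 1 SE of the edgeR estimate, n = 3 lots per class). Filled points passed an adjusted p of 0.05 over 13642 genes. Fst has the largest positive value in both comparisons of pre-granulosa-like cells with another somatic class (3.45 and 3.33), and Inhba the most negative against stromal-like cells (-6.07).

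Inha, the alpha subunit gene, lies on mouse chromosome 1 (GRCm38, chr1:75507077-75510366, plus strand) in GENCODE's annotation. In Sertoli-like cells it was at 276 CPM in lot 26 (89 cells), 256 in lot 29 (286 cells) and 284 in lot 30 (16 cells). The pre-granulosa-like values were 78.2, 78.0 and 84.2 CPM in the same order. The lots of these classes did not overlap with each other or with those of any other class. Stromal-like cells followed with 26.4, 21.2 and 26.8 CPM, then epithelial-like cells with 18.5, 13.8 and 22.8 CPM. These neighbours overlapped between lots, as did the endothelial-like (mean 15.2 CPM), mesonephric tubule-like (14.1) and red blood cell-like (9.33) classes, and germ-like cells were lowest with 10.8, 4.68 and 11.1 CPM.

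The difference between Sertoli-like and pre-granulosa-like cells, the supporting cells of either sex, was 3.17-fold (log2 fold change 1.67, SE 0.17, edgeR adjusted p = 5.95e-09). Pre-granulosa-like cells were in turn 4.44-fold above epithelial-like cells (2.15, SE 0.16, edgeR adjusted p = 2.65e-11) and 3.48-fold above stromal-like cells (1.80, SE 0.16, edgeR adjusted p = 3.84e-10). Inha thus had the same order in every lot from Sertoli-like to pre-granulosa-like to the other somatic cells. Between stromal-like and epithelial-like cells the log2 difference was 0.35 (SE 0.16), which did not pass (edgeR adjusted p = 0.0978). It passed with the lot as a block (0.36, edgeR adjusted p = 0.00518), and it fell to -0.02 without cluster 3.

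The share of cells with Inha also set Sertoli-like and pre-granulosa-like cells above the others. After each cell was thinned to 4000 UMIs, which left out 835 shallower cells, 52.1% of Sertoli-like and 26.03% of pre-granulosa-like cells had an Inha UMI. The share was 7.07% in stromal-like, 5.90% in epithelial-like and 2.94% in germ-like cells. Red blood cell-like cells, which served as background, had 1.35%, a coarse value from 74 cells. Before thinning, with a median of 21193 UMIs per germ-like and 10186 per pre-granulosa-like cell, the shares were 15.8% and 48.3%.

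Inhbb and Inhba, the beta B and beta A subunit genes, were high in different classes. Inhbb lies on chromosome 1 (GRCm38, chr1:119415465-119422248, minus strand) and Inhba on chromosome 13 (GRCm38, chr13:16011851-16031621, plus strand). The reverse strand of Inhba overlaps B230303A05Rik and Gm48444, whose reads cannot be told from its own since the strand setting of the counting was not given in the sources used here. The 140 bases just before the start of each gene are shown because both genes encode beta subunits and had different cell classes at the top. RefSeq's sequences for GRCm38.p6 are printed 5′ to 3′ on the gene's strand, with a match to TATAAA, or to CCGCCC, the reverse complement of the GGGCGG searched for, in capitals.
Inhba, chr13:16011711-16011850, plus strand: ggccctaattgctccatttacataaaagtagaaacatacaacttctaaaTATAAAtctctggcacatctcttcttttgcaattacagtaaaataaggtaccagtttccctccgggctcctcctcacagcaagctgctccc
Inhbb, chr1:119422249-119422388, minus strand: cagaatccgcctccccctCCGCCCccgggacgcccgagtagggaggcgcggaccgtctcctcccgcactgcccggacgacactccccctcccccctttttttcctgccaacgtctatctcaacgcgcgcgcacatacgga

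The Inhba stretch was 41.4% G or C, with TATAAA 91 bases before the start, and the Inhbb stretch was 68.6% G or C, with the GGGCGG match 122 bases before it. Windows of 250 bases before RefSeq's start were searched on both strands for the 8 of the 9 genes that had an entry (all but Fst) and for 32851 windows in all. RefSeq's start lies 532 bases from GENCODE's for Inha, 182 for Fstl1 and 60 for Acvr2b. The windows of these genes thus do not end at the coordinates given here. TATAAA was in 2 of the 8 (Inhba and Fstl3) and in 12.4% of all windows, and GGGCGG in 6 of the 8 (Inhbb, Acvr2a, Acvr2b, Acvr1b, Fstl1 and Fstl3) and in 32.7% of all. None of the 8 held TGACGTCA (1.55% of all windows), GTCTAGAC (0.167%), CAAGGTCA (1.33%) or TGTTTAC (3.17%). These matches describe the letters only.

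Inhbb was at 166, 129 and 170 CPM in Sertoli-like cells of lots 26, 29 and 30 (155 ± 22.7, SD, n = 3 lots). Pre-granulosa-like cells had 19.5, 19.5 and 20.2 CPM, and epithelial-like cells 15.4, 11.8 and 15.3 CPM. Stromal-like cells had 6.87, 6.07 and 6.68 CPM. Each of the first 3 classes lay above the next in every lot, whereas stromal-like, endothelial-like (mean 6.31), germ-like (4.55), red blood cell-like (2.09) and mesonephric tubule-like cells (1.43) overlapped their neighbours.

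The Inhbb difference between Sertoli-like and pre-granulosa-like cells was 7.17-fold (log2 2.84, SE 0.15, edgeR adjusted p = 3.73e-14), larger than that of Inha. Pre-granulosa-like cells were 1.42-fold above epithelial-like cells (0.51, SE 0.14, edgeR adjusted p = 0.00375) and 3.24-fold above stromal-like cells (1.70, SE 0.15, edgeR adjusted p = 2.96e-10). Stromal-like cells were 2.28-fold below epithelial-like cells (-1.19, SE 0.15, edgeR adjusted p = 4.14e-07). After thinning, 41.2% of Sertoli-like, 7.62% of pre-granulosa-like and 4.77% of epithelial-like cells had a UMI. The share was 1.98% in both germ-like and stromal-like cells and 1.35% in the 74 red blood cell-like cells. The shares thus did not set stromal-like cells apart from germ-like cells, and stromal-like Inhbb was compared in sums only.

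Inhba took the reverse course and was, among the large classes, a gene of the stromal-like one. There it was at 28.3, 26.03 and 22.2 CPM. The pre-granulosa-like values were 0.43, 0.28 and 0.32 CPM, 44 UMIs in 11855 cells. Of the named classes tested, only the 76 mesonephric tubule-like cells overlapped the stromal-like level (29.1, 8.29 and 46.7 CPM, 28 UMIs in all). Unnamed cluster 14, described at the end, was above stromal-like cells in every lot. Epithelial-like cells (1.61, 1.79 and 1.11 CPM) and germ-like cells (1.83, 0.88 and 1.51 CPM) were far below it, 9 UMIs were found in Sertoli-like and 3 in endothelial-like cells, and red blood cell-like cells had none.

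Inhba was 67.1-fold lower in pre-granulosa-like than in stromal-like cells (log2 -6.07, SE 0.30, edgeR adjusted p = 1.64e-14) and 4.10-fold lower than in epithelial-like cells (-2.04, SE 0.34, edgeR adjusted p = 2.7e-05). Stromal-like cells were 16.4-fold above epithelial-like cells (4.03, SE 0.26, edgeR adjusted p = 7.24e-12). Thinned stromal-like cells had an Inhba UMI in 8.44% of cases, against 0.19% of pre-granulosa-like and 0.21% of germ-like cells. The call between Sertoli-like and pre-granulosa-like cells (log2 2.21, SE 0.76, edgeR adjusted p = 0.024) rested on those 9 UMIs, of which 8 were in lot 29. Without lot 29 it was 0.59 with an edgeR adjusted p of 0.832, and with called doublets left out the Sertoli-like cells had 0 UMIs.

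The beta subunits thus differed in proportion between the classes. Inhbb made up 98.3% ± 0.39 (SD, n = 3 lots) of the UMIs of both beta genes in pre-granulosa-like cells, 99.3% ± 0.87 in Sertoli-like, 90.2% ± 3.20 in epithelial-like and 76.7% ± 4.22 in germ-like cells. In stromal-like cells it made up 19.5%, 18.9% and 23.1%, below every lot of the other 4 classes. Since 1 UMI need not stand for the same number of transcripts in different genes, such proportions are compared between classes only.

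Inha UMIs per UMI of both beta genes were 3.99 ± 0.09 (SD, n = 3 lots) in pre-granulosa-like cells, the highest of these 5 classes, and 1.76 ± 0.17 in Sertoli-like cells. They were 1.44 in germ-like, 1.16 ± 0.20 in epithelial-like and 0.78 ± 0.13 in stromal-like cells. Sertoli-like cells, which had the most Inha, were thus below pre-granulosa-like cells in this proportion in every lot.

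**Figure D3:**
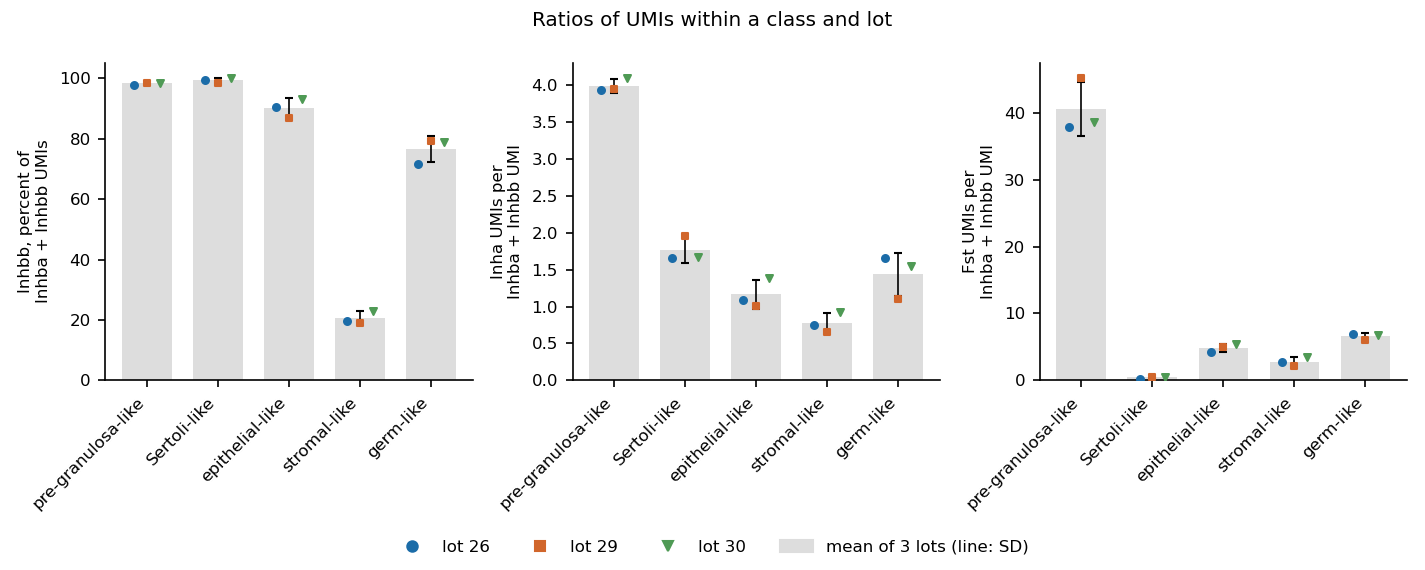
UMI proportions between the genes in 5 cell classes (bars are means over 3 lots, lines the SD, points the lots): Inhbb as percent of Inhba and Inhbb, Inha per UMI of Inhba and Inhbb, and Fst per UMI of Inhba and Inhbb. Stromal-like cells are lowest for Inhbb (mean 20.5%), and pre-granulosa-like cells highest for Inha (3.99) and Fst (40.6).

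Fst encodes follistatin, which binds activins tightly and keeps them from their receptors. The gene lies on chromosome 13 (GRCm38, chr13:114452290-114458951, minus strand) and is overlapped by Gm47040 on the other strand. Pre-granulosa-like cells had 753, 894 and 794 CPM in lots 26, 29 and 30 (814 ± 72.5, SD, n = 3 lots). The unnamed cells together had a mean of 414 CPM. Every other named class had a mean of 135 CPM or less. Stromal-like cells had 95.1, 66.8 and 100.7 CPM, epithelial-like cells 72.1, 66.9 and 88.5 CPM and Sertoli-like cells 41.3, 74.4 and 88.6 CPM. Germ-like cells had 45.1, 25.7 and 48.7 CPM, and the red blood cell-like class, 105 Fst UMIs in all, ranged from 15.9 to 301 CPM. All classes but the pre-granulosa-like one overlapped the next in the order of their levels, except for mesonephric tubule-like (52.8, 59.7 and 81.6 CPM) over germ-like cells.

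Fst was 10.96-fold higher in pre-granulosa-like than in epithelial-like cells (log2 3.45, SE 0.28, edgeR adjusted p = 1.59e-10) and 10.1-fold higher than in stromal-like cells (3.33, SE 0.28, edgeR adjusted p = 1.72e-10). Sertoli-like cells were 13.2-fold below pre-granulosa-like cells (-3.73, SE 0.32, edgeR adjusted p = 3.55e-10). The supporting cells of the ovary and the testis thus went opposite ways for Fst and Inha, higher and lower in pre-granulosa-like cells respectively. Stromal-like and epithelial-like cells differed by 0.13 (SE 0.26, edgeR adjusted p = 0.759), a value that at clustering resolution 0.4 turned to -0.84 and passed (edgeR adjusted p = 0.0142).

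In the other named classes the Fst signal lay in few cells. Of the unnamed cells, by contrast, 39.8% had an Fst UMI after thinning. At 4000 UMIs per cell, 76.5% of pre-granulosa-like cells had an Fst UMI (exact 95% interval 75.8% to 77.3%, counting error only), against 14.2% of epithelial-like, 12.1% of stromal-like, 11.3% of endothelial-like and 7.25% of Sertoli-like cells. Red blood cell-like cells had 10.8% (74 cells, exact 95% interval 4.78% to 20.2%) and germ-like cells 10.5% at the same depth. The Sertoli-like share was at or below this background. All these shares include called doublets. The median pre-granulosa-like cell had 7 Fst UMIs, and the 5% of cells with most held 17.8% of the UMIs. In each of the other 5 classes examined the median was 0 and the top 5% held 59.2% (epithelial-like) to 87.2% (Sertoli-like).

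Leaving out called doublets hardly moved Fst in pre-granulosa-like cells (815 ± 73.6 CPM) and lowered it to 45.9 ± 11.6 CPM in epithelial-like, 36.1 ± 7.01 in stromal-like, 13.5 in germ-like and 16.1 in endothelial-like cells. Sertoli-like cells without doublets had 31.5, 12.4 and 73.7 CPM in lots 26, 29 and 30, above germ-like cells in every lot (19.6, 8.15 and 12.8 CPM). The log2 difference of pre-granulosa-like cells then became 4.25 against epithelial-like and 4.65 against stromal-like cells, and that of Sertoli-like cells -5.14. With all cells, the Fst level in the same 5 classes was 4.89% (germ-like), 8.37% (Sertoli-like), 8.89% (endothelial-like), 9.31% (epithelial-like) and 10.8% (stromal-like) of the pre-granulosa-like level. The 8 pre-granulosa markers were at 5.26% to 9.67% of their pre-granulosa-like level in germ-like and at 11.8% to 44.8% in stromal-like cells, all above the share of Fst. In endothelial-like (2.22% to 33.2%), epithelial-like (6.86% to 54.99%) and Sertoli-like cells (1.83% to 122%) the markers lay on both sides of it.

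Fst also varied among the 3 pre-granulosa-like clusters. Cluster 1, in which Fst was among the 10 leading genes with Lhcgr, had 1234, 1581 and 1485 CPM, and 93.9% of its thinned cells had an Fst UMI. Cluster 0, led by Ly6d and Gng13, had 475, 548 and 494 CPM (64.1% of thinned cells) and cluster 2 had 688, 662 and 644 CPM (71.7%). Inha followed Fst in part, with 104 ± 3.17 CPM in cluster 1 against 68.7 in cluster 0 and 70.2 in cluster 2. Inhbb was at 22.8, 18.9 and 21.9 CPM in clusters 1, 0 and 2. These clusters were drawn from the same cells, so their values are descriptions without a test.

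Among pre-granulosa-like cells, those with and without Fst differed little in Inha. Among thinned cells with an Fst UMI, 26.03%, 26.3% and 27.7% had an Inha UMI in lots 26, 29 and 30, against 23.5%, 22.9% and 24.3% of those without. In stromal-like cells the shares with Inha were 18.5%, 12.2% and 14.5% among cells with Fst and 6.69%, 4.86% and 6.02% among those without. Stromal-like cells with an Inhba UMI had an Inha UMI in 4.88%, 2.69% and 4.40% of cases, fewer in each lot than cells without Inhba (8.54%, 5.83% and 7.39%). Of the stromal-like cells 618 were called doublets, whose part in these shares was not tested.

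**Figure D4:**
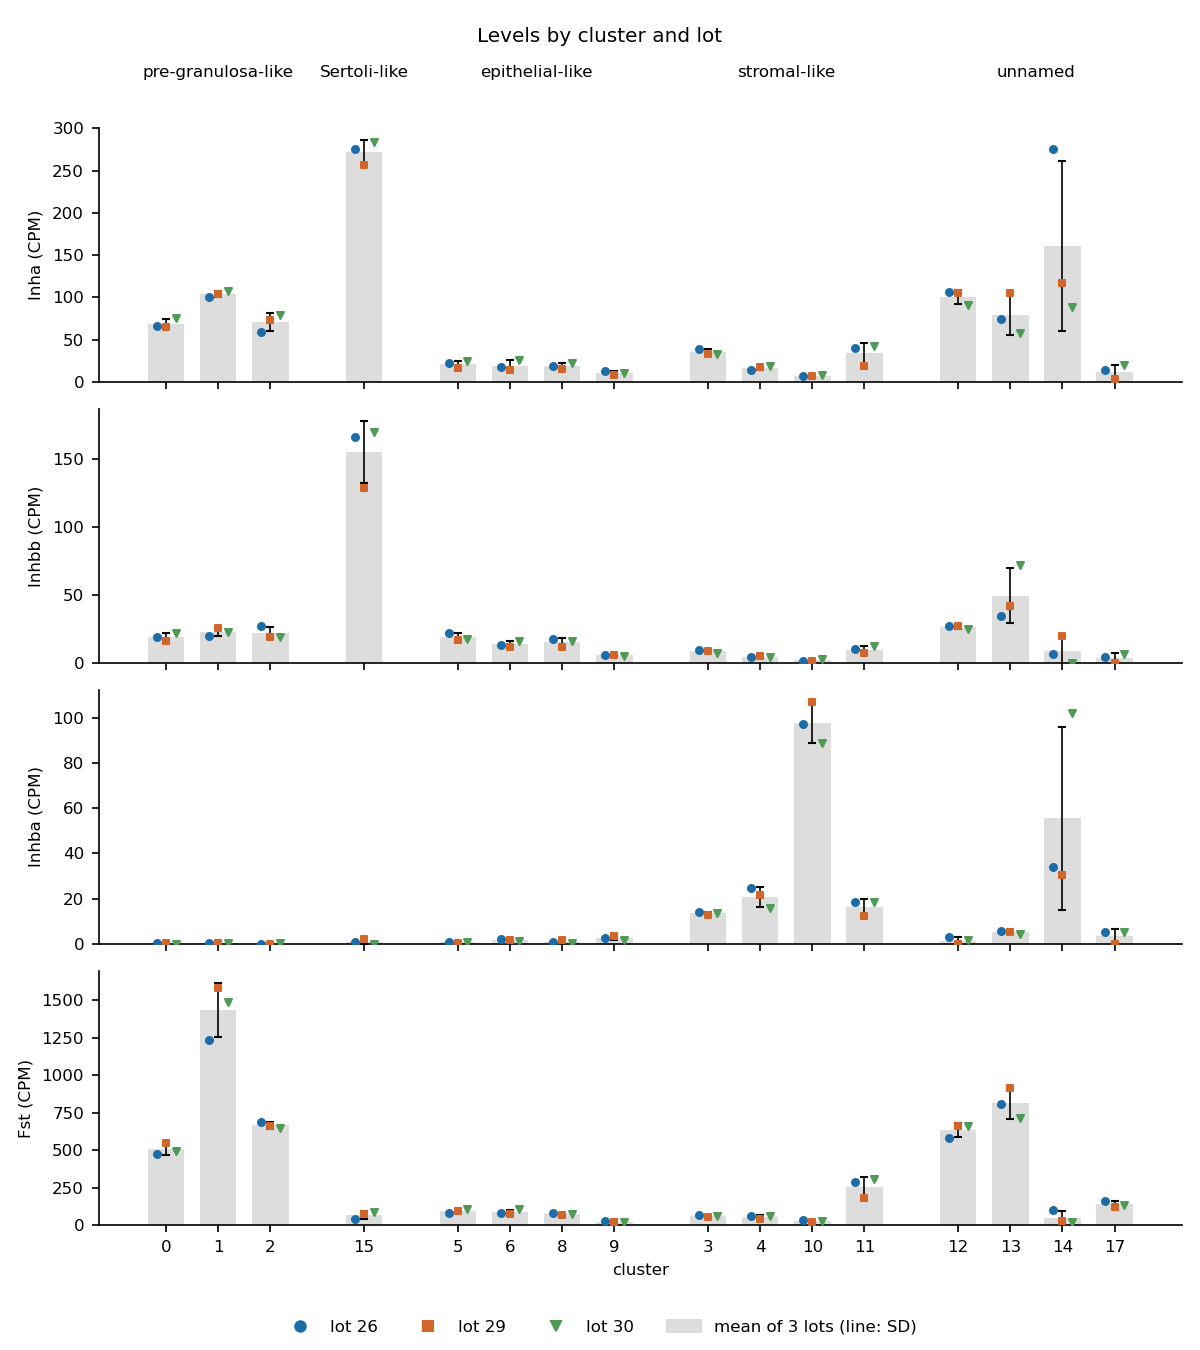
Level of Inha, Inhbb, Inhba and Fst in single clusters, ordered by the class they belong to (CPM of summed UMIs, bars are means over 3 lots, lines the SD, points the lots). Fst differs among the pre-granulosa-like clusters, from 506 CPM in cluster 0 to 1434 in cluster 1, and Inhba peaks in stromal-like cluster 10 at 97.7 CPM.

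The stromal-like class was split by Inhba. Cluster 10 (1068 cells, led by Lum, Ntrk2 and Agtr2, with Inhba itself among the 10 leading genes) had 97.4, 107 and 88.7 CPM, and 23.9% of its thinned cells had an Inhba UMI. Clusters 4 (mean 20.8 CPM), 11 (16.4) and 3 (13.5) were lower in every lot. Cluster 10 had the lowest Inha (7.28 CPM) and Inhbb (1.82 CPM) of the stromal-like clusters and the highest Fstl1 (385 ± 38.6 CPM). Inhbb made up 1.87% of its beta subunit UMIs, against 38.5% in cluster 3.

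Cluster 11 (841 cells, led by Dkk2, Foxd1 and Nefm) was the stromal-like cluster with Fst, at 284, 180 and 305 CPM. Its share of thinned cells with an Fst UMI was 33.8%, against 7.50% in cluster 10, 9.69% in cluster 4 and 8.72% in cluster 3. In the epithelial-like class, cluster 9, led by Pappa2, Upk1b and Krt19, had 23.4 ± 1.03 CPM of Fst and the other clusters 74.3 to 92.0 CPM. Its Inha (10.5 CPM) and Inhbb (5.60 CPM) were also the lowest of the epithelial-like clusters. These cluster values include called doublets. Leaving doublets out lowered the Fst UMIs of the stromal-like class from 6387 to 2168 and of the epithelial-like class from 7249 to 3857. The part of single clusters, cluster 11 among them, in this fall was not tested.

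Fst UMIs per UMI of both beta genes were 40.6 ± 4.03 (SD, n = 3 lots) in pre-granulosa-like cells, 61.6 ± 1.504 in cluster 1 alone. They were 6.61 in germ-like, 4.85 ± 0.58 in epithelial-like, 2.76 ± 0.70 in stromal-like and 0.45 ± 0.17 in Sertoli-like cells, and 0.26 in stromal-like cluster 10. The proportion of binding protein to ligand UMIs was thus highest in pre-granulosa-like and lowest in Sertoli-like cells of these 5 classes, with no overlap of lots. Without called doublets, an alternative added after seeing the data, it was 40.6 in pre-granulosa-like, 3.41 in germ-like, 3.07 in epithelial-like, 1.11 in stromal-like and 0.24 in Sertoli-like cells, so the ends of the order held and the lower values fell by over 1.5 times.

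Fstl3, a close relative of Fst whose product also binds activins, had its highest level in the same class. It lies on chromosome 10 (GRCm38, chr10:79777272-79782630, plus strand), where Prss57 overlaps it on the other strand. Pre-granulosa-like cells had 10.5, 10.6 and 11.1 CPM, above every lot of the other classes. Epithelial-like cells had 6.28, 4.92 and 6.28 CPM, stromal-like cells 3.73, 2.28 and 4.50 CPM, and Sertoli-like cells 13 UMIs in all.

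Pre-granulosa-like cells had 1.87-fold more Fstl3 than epithelial-like (log2 0.91, SE 0.20, edgeR adjusted p = 5.33e-04) and 3.24-fold more than stromal-like cells (1.70, SE 0.21, edgeR adjusted p = 1.66e-07). Stromal-like cells were below epithelial-like cells by 0.79 on the log2 scale (SE 0.22, edgeR adjusted p = 0.00568), which did not pass without lot 26 (edgeR adjusted p = 0.0684). Sertoli-like cells had 4.57-fold less than pre-granulosa-like cells (-2.19, SE 0.40, edgeR adjusted p = 9.01e-05), and -3.28 without lot 29. The share of thinned pre-granulosa-like cells with a UMI was only 3.97%, against 0.96% of germ-like cells, so Fstl3 could be compared in sums but hardly in single cells.

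Fstl1, which encodes a secreted protein with a follistatin domain, was by contrast a gene of stromal-like and endothelial-like cells. It lies on chromosome 16 (GRCm38, chr16:37776873-37836514, plus strand). Stromal-like cells had 261, 241 and 264 CPM, above every lot of the other classes, and endothelial-like cells 194, 143 and 206 CPM. Mesonephric tubule-like (mean 134 CPM), epithelial-like (107 ± 4.28) and pre-granulosa-like cells (99.2 ± 11.4) followed with overlapping lots, then Sertoli-like (76.4 ± 2.71) and germ-like cells (28.8 ± 8.30), which overlapped neither each other nor the classes above.

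Stromal-like cells had 2.26-fold more Fstl1 than epithelial-like cells (log2 1.18, SE 0.17, edgeR adjusted p = 4.43e-06) and 2.40-fold more than pre-granulosa-like cells (edgeR adjusted p = 7.57e-07). Pre-granulosa-like and epithelial-like cells differed by -0.09 (SE 0.17, edgeR adjusted p = 0.72). Between Sertoli-like and pre-granulosa-like cells the difference was -0.46 (SE 0.20, edgeR adjusted p = 0.0716), which passed with the lot as a block (-0.41, edgeR adjusted p = 0.0171). The UMI was seen in 60.9% of thinned stromal-like cells against 8.68% of germ-like cells.

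The receptors were expressed at more even levels. Acvr2b, a type II receptor gene on chromosome 9 (GRCm38, chr9:119402118-119434995, plus strand, overlapped by Gm47320 on the other strand), had 31.4, 37.9 and 35.2 CPM in epithelial-like cells. Pre-granulosa-like cells had 28.7, 28.0 and 27.8 CPM, and stromal-like cells 22.0, 24.5 and 24.3 CPM. These 3 classes did not overlap. Germ-like (32.9 ± 0.67), Sertoli-like (29.3 ± 4.33) and endothelial-like cells (25.6 ± 2.55) lay within the same range, and mesonephric tubule-like cells, with 70 UMIs in all, were highest at 68.7, 54.7 and 42.8 CPM.

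Acvr2b was lower in stromal-like than in epithelial-like cells by 0.64 on the log2 scale (SE 0.12, edgeR adjusted p = 1.21e-04). Against stromal-like cells pre-granulosa-like cells were higher by 0.36 (SE 0.12, edgeR adjusted p = 0.0139), a call lost without lot 26 (0.31, edgeR adjusted p = 0.107) or lot 30 (0.43, edgeR adjusted p = 0.0573). The difference between pre-granulosa-like and epithelial-like cells was -0.28 (SE 0.12, edgeR adjusted p = 0.0527) and passed with the lot as a block (-0.27, edgeR adjusted p = 0.00263). Thinned shares with a UMI were 12.8% in epithelial-like, 10.9% in pre-granulosa-like and 8.54% in stromal-like cells.

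Acvr2a, the other type II receptor gene, lies on chromosome 2 (GRCm38, chr2:48814109-48903269, plus strand), where Orc4 overlaps it on the other strand. Its means were 17.2 ± 1.80 CPM in stromal-like, 14.8 ± 0.04 in epithelial-like and 13.9 ± 0.78 in pre-granulosa-like cells. The lots of the latter classes overlapped each other, and those of stromal-like cells lay above both. None of the 6 comparisons passed (edgeR adjusted p from 0.0555 to 0.744), and the lot as a block gave calls against stromal-like cells (-0.20, edgeR adjusted p = 0.0436) and in germ-like cells (-0.25, edgeR adjusted p = 0.0114). Acvr2b made up 70.0% ± 1.94 (SD, n = 3 lots) of the UMIs of both type II genes in epithelial-like and 66.9% ± 1.53 in pre-granulosa-like cells, against 57.9% ± 3.34 in stromal-like cells.

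Acvr1b, a type I receptor of activins, lies on chromosome 15 (GRCm38, chr15:101174067-101213684, plus strand) and was sparsely counted, with 346 UMIs in stromal-like and 63 in Sertoli-like cells. It was at 6.62, 5.70 and 5.97 CPM in pre-granulosa-like, 6.58, 5.17 and 5.70 CPM in epithelial-like and 4.90, 4.32 and 5.25 CPM in stromal-like cells. Epithelial-like cells overlapped both other classes, and pre-granulosa-like cells lay above stromal-like cells in every lot. Sertoli-like cells had 21.8, 8.78 and 3.69 CPM, a spread wider than that of any other class for this gene. The last value, from 16 cells of lot 30, lay below the level of 3 UMIs there (11.1 CPM). The call of Sertoli-like against pre-granulosa-like cells (0.98, SE 0.30, edgeR adjusted p = 0.0109) was lost without lot 26 (0.47, edgeR adjusted p = 0.391). Against stromal-like cells pre-granulosa-like cells differed by 0.44 (SE 0.21, edgeR adjusted p = 0.0931), which passed with the lot as a block (0.43, edgeR adjusted p = 0.00753).

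In germ-like cells the ligand and binding protein genes were called lower and the receptor genes were not called in the main model. The receptors' log2 differences from the mean of the 3 large somatic classes were 0.05 for Acvr1b, -0.26 for Acvr2a and 0.17 for Acvr2b (edgeR adjusted p = 0.805, 0.0555 and 0.138). Acvr2b gained a call as higher in 6 of 18 alternatives, among them the lot as a block (0.18, edgeR adjusted p = 0.025) and DESeq2 (0.29, DESeq2 adjusted p = 2.97e-04). Acvr2a gained a call as lower in 8 of the 18. Fstl1 was lower by 2.31 (edgeR adjusted p = 2.2e-12), Fst by 2.18 (1.29e-08), Inha by 1.90 (4.73e-11), Inhbb by 1.45 (4.43e-09) and Fstl3 by 1.43 (2.68e-06) on the log2 scale. Inhba was lower by 0.69 (SE 0.30, edgeR adjusted p = 0.042), a call lost in 9 of 18 alternatives, among them the fits without any 1 of the lots (-0.86 to -0.51).

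Endothelial-like cells, 349 that escaped the CD31 depletion, had the 1 gene higher, Fstl1 (0.39, SE 0.15, edgeR adjusted p = 0.0342). That call was lost without lot 26 (0.37, edgeR adjusted p = 0.179) or lot 30 (0.33, edgeR adjusted p = 0.13). Fst was lower by 1.29 (edgeR adjusted p = 1.5e-04) and Inha by 1.14 (5.91e-05). Fstl3 (-1.35, edgeR adjusted p = 0.00601) and Inhbb (-1.14, edgeR adjusted p = 5.58e-04) were called lower as well, and neither passed without lot 26. Fstl3 was then still at -1.31 (edgeR adjusted p = 0.116), while Inhbb was at -0.55 (edgeR adjusted p = 0.165). For Inhba, with 3 UMIs that all came from lot 26, edgeR gave an adjusted p of 0.0247, and the call was lost without any 1 of the lots (edgeR adjusted p = 0.0516, 0.0549 and 0.0735 without lots 26, 29 and 30).

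Of 32 other genes of the pathway listed by role, 31 were in a table and 19 passed the low-count filter. The listed ligands other than the 9 genes mostly missed the filter, with 2 of 10 tested, and 12 of 12 cytoplasmic and nuclear components were tested. In stromal-like against epithelial-like cells 10 of the 19 were higher and 1 was lower (median log2 fold change 0.41, against -0.01 over all genes, of which 16.5% were higher and 14.8% lower). In pre-granulosa-like against stromal-like cells 2 were higher and 9 lower (median -0.33, against 0.00 over all genes, of which 25.0% were higher and 24.4% lower). Pre-granulosa-like against epithelial-like cells had 4 in each direction (46.0% of all genes called), and Sertoli-like cells had 6 higher and 3 lower than pre-granulosa-like cells (37.5%). Set against the somatic mean, germ-like cells had 7 higher and 10 lower, where 77.8% of all genes passed, and endothelial-like cells 6 higher and 3 lower, where 42.2% did.

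Pmepa1, a gene that SMAD signalling induces and whose product restrains SMADs, had the widest span among the named pathway genes in the large somatic classes. Stromal-like cells had 185, 173 and 180 CPM and pre-granulosa-like cells 5.13, 5.42 and 5.19 CPM. Epithelial-like cells (mean 22.7 CPM) and Sertoli-like cells (68.5) lay between them. The differences from pre-granulosa-like cells were -4.99 for stromal-like (SE 0.18, edgeR adjusted p = 2.08e-17, coded as pre-granulosa-like minus stromal-like), -2.09 for epithelial-like (SE 0.17, edgeR adjusted p = 1.27e-10) on the same coding, and 3.68 for Sertoli-like minus pre-granulosa-like cells (SE 0.20, edgeR adjusted p = 3.93e-14). Within the stromal-like class Pmepa1 was at 208 CPM in cluster 3, 188 in cluster 4, 166 in cluster 10 and 110 in cluster 11, so it did not follow Inhba from cluster to cluster.

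Of the pathway list's receptor-level genes, Tgfbr3, Bambi and Acvr1 were named, and all 3 were higher in stromal-like than in pre-granulosa-like cells, unlike Acvr2b. Tgfbr3 (betaglycan, a co-receptor through which inhibin holds type II receptors) was at 41.2, 34.6 and 37.8 CPM in stromal-like cells and at 9.59, 7.85 and 8.40 CPM in pre-granulosa-like cells (-2.03, SE 0.16, edgeR adjusted p = 2.26e-11). Bambi, a decoy receptor, had 147 CPM in stromal-like, 97.6 in epithelial-like and 78.0 in pre-granulosa-like cells (-0.81 for pre-granulosa-like against stromal-like, edgeR adjusted p = 6.36e-05). Acvr1, another type I receptor, had 22.2 CPM in stromal-like and 4.95 in pre-granulosa-like cells (-2.05, edgeR adjusted p = 5.06e-13). Acvr1 was also high in endothelial-like cells (25.2 CPM).

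Among the SMADs, Smad2 varied little in the somatic classes, from 46.6 to 53.8 CPM over the means of pre-granulosa-like, epithelial-like, stromal-like and Sertoli-like cells. Smad3 had 22.2 ± 4.44 CPM in pre-granulosa-like and 23.2 ± 3.27 in stromal-like cells against 12.3 ± 2.01 in epithelial-like cells (0.88 for pre-granulosa-like against epithelial-like, edgeR adjusted p = 1.62e-05). Among the pre-granulosa-like clusters Smad3 had 38.4 CPM in cluster 1 and 14.4 in cluster 0, the clusters with most and least Fst. Smad4, the shared partner, ranged from 98.2 to 123 CPM over the means of the same 4 classes.

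By the mean over lots, Sertoli-like cells were the highest of the classes tested in 3 genes whose products restrain the signal. Skil, a SMAD corepressor, had 80.4 ± 14.99 CPM against 25.1 ± 5.57 in pre-granulosa-like cells (2.83-fold, edgeR adjusted p = 5.37e-07). Tgif1, another corepressor, had 100.1 against 53.9 CPM (0.85, edgeR adjusted p = 1.95e-05), and Smad7, an inhibitory SMAD, 156 against 97.8 CPM (0.60, edgeR adjusted p = 0.0339). Ski differed by -0.02 (edgeR adjusted p = 0.961), and Smurf2, a ubiquitin ligase, likewise by -0.02 (edgeR adjusted p = 0.961). For Skil, Tgif1 and Smad7 the Sertoli-like lots overlapped those of mesonephric tubule-like cells. In lot 30 the latter had 117 CPM of Tgif1 and 198 of Smad7. Unnamed cluster 13 had higher means of Skil (154 CPM), Tgif1 (106) and Smad7 (248). Pmepa1 and Bambi were by contrast highest in stromal-like cells.

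In germ-like cells Gdf3, a ligand related to Nodal, was at 20.7, 25.7 and 20.6 CPM, where pre-granulosa-like cells averaged 0.17 CPM (log2 7.20 against the somatic mean, SE 0.24, edgeR adjusted p = 2.61e-17). Zfyve9, a scaffold that brings SMADs to receptors, was also highest there (62.5 CPM, 0.83, edgeR adjusted p = 2.02e-08). Tgfbr3, Smad3 and Bambi were lower in germ-like cells by 2.16, 1.68 and 2.23 on the log2 scale (edgeR adjusted p = 3.33e-11, 1.83e-10 and 4.26e-13).

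**Figure D5:**
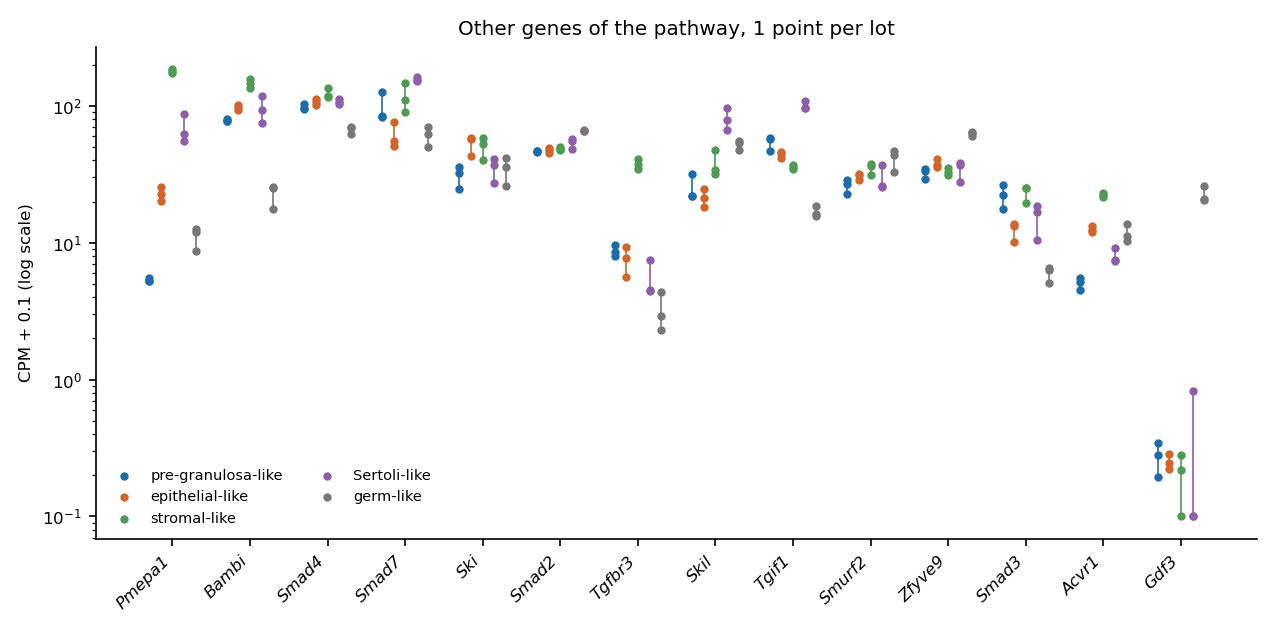
Levels of 14 further pathway genes in 5 cell classes (CPM of summed UMIs plus 0.1, log axis, 1 point per lot). Pmepa1 spans the widest range among the large somatic classes, from a mean of 5.25 CPM in pre-granulosa-like to 179 in stromal-like cells, and Gdf3 is high in germ-like cells (22.3 CPM).

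Over the 24 sums, the genes whose log2(CPM + 1) was most like that of each gene were found by Pearson's r among 13633 other genes tested. For Fst they were Wfdc1 (r = 0.896), 4930523C07Rik, Frmd6 and Lzts1 (0.863), and for Inha Gstm2 (0.958), Ppt1, Rnd2, Tmprss13 and Etnk2 (0.935). For Inhbb they were Shbg (0.929), Eps8, Fads6, Dusp15 and Obp2a (0.913), and for Inhba Fgfr4 (0.939), Bdnf, Fat3, Prrx1 and Shisa3 (0.91). The sums of a lot share cells, capture and depth, so these values describe likeness only.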

How the data were processed

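UMI counts per gene and cell barcode of 3 lots were used as deposited. The authors made these counts with UMI-tools, STAR 2.7 and featureCounts 2.0.1 on GRCm38, without normalization. The annotation release and strand setting are not given in the sources used here. Barcodes with 200 to 9000 genes and at most 10% mitochondrial UMIs were kept, per the study's methods. Lots were merged and clustered in Seurat 5.3.0 (log-normalization to 10000, 2000 variable genes less 8 that belong to the genes or pathway described, 50 principal components, resolution 0.8; 21 clusters). A cluster was named from 14 marker lists by a score of at least 1 and a lead of 0.25, with 3 markers raised by 1 on the log2 scale and 2 found in 60% of cells. Classes with 10 or more cells in every lot were summed per lot (184947 to 53916418 UMIs) and tested in 1 model with edgeR 4.0.16 (TMM, filterByExpr by class, quasi-likelihood test, Benjamini-Hochberg adjustment, threshold 0.05, R 4.3.3). The study tested no gene, so its filters were followed and the model was set here. The model had no term for the lot. The 8 sums of a lot were cut from 1 pool of cells, which pairs them: the median correlation of their deviations from the mean of a class was 0.472 (84 pairs of sums within lots) and -0.233 (168 pairs across lots). Doublets were called per lot with Scrublet in scanpy 1.11.5 and kept in the main model. Intervals are exact Clopper-Pearson and cover counting error only.

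All 9 genes are named, with those of the 32 further pathway genes that reached a mean of 20 CPM in a class tested, and for Fst, Inha, Inhba and Inhbb the 5 genes of most similar pattern, of which 1 for Fst is not reported here. The genes and lists were chosen with earlier results of these data known. Coordinates were taken from GENCODE for GRCm38 and sequences from RefSeq. Alternatives were clustering at resolutions of 0.4 and 1.2, 30 principal components, the genes put back in the clustering, stricter cell filters (1000 genes, 5% mitochondrial UMIs), doublets or cells with Y-linked UMIs removed, RLE size factors, no low-count filter, DESeq2 1.42.0, the lot as a block, fewer classes in the model, and each lot left out. Leaving out cluster 2 or cluster 3 was added after seeing the data. Xist was not analysed here. The test, with its filter and scaling, was checked on simulated counts whose sums were drawn independently. That check does not cover the pairing of a lot's sums, the clustering or the naming.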

Additional observations from a re-analysis of the deposited data

How the results depend on the processing

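Across 19 alternatives the 54 log2 fold changes of the 9 genes were recomputed 990 times, of which 926 kept their direction and their side of the threshold, 27 lost the call, 27 gained it and 10 changed direction. For Fst in stromal-like against epithelial-like cells (0.13) the value was -0.84 at resolution 0.4 (a call in the other direction, edgeR adjusted p = 0.0142), -0.16 at resolution 1.2 and -0.41 without called doublets, and for Inha (0.35) it was -0.24 at resolution 1.2 and -0.017 without cluster 3, an alternative added after seeing the data. Acvr2a in pre-granulosa-like against epithelial-like cells (-0.06) became 0.020 without cells with Y-linked UMIs, and Acvr1b in endothelial-like cells (0.29) lay between -0.068 and 0.47 without 1 lot (-0.068 without lot 30). In Sertoli-like against pre-granulosa-like cells, Acvr2b (-0.04) became 0.019 without doublets and lay between -0.23 and 0.084 without 1 lot (0.084 without lot 26), and Inhba (2.21) became -5.22 without doublets, where the Sertoli-like cells hold no UMI. Of these, Inhba in Sertoli-like cells alone had passed the test in the main model, and the cause of the other changes was not tested. The replicate block (the lot as a term) changed no call but for 7 of the 54 that it gained, each given beside its result. The block raised the number of all genes called in stromal-like against epithelial-like cells from 4282 to 7056, and leaving out 1 lot gave 2581 to 4146. In endothelial-like cells the count of the 9 genes called was 6 and fell to 2 to 5 without 1 lot (2 without lot 26), and that of all genes from 5760 to 3722 to 5438. In the other 5 comparisons leaving out 1 lot gave 5 to 5, 6 to 7, 4 to 5, 5 to 6 and 5 to 5 of the 9 genes called (pre-granulosa-like against epithelial-like and stromal-like, stromal-like against epithelial-like, Sertoli-like, germ-like), where all 3 lots gave 5, 7, 5, 6 and 6. At resolution 0.4, pre-granulosa-like against stromal-like cells gave 4.21 for Fst and 2.48 for Inhbb, and stromal-like against epithelial-like cells -1.96 for Inhbb. Without called doublets Fst became -2.96 in germ-like and -2.58 in endothelial-like cells, where Fstl3 became -2.06 and Inhbb -1.91, and Inhba in germ-like cells became -1.34. For 8 of the 9 genes the class with the highest CPM also had the highest share of cells with a UMI, with and without thinning.

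Depth limits Inhba in germ-like cells, and Inhba, Fstl3 and Acvr1b in the Sertoli-like and smaller classes, where a lot holds few UMIs. In pre-granulosa-like cells Inhba was sparse, but its 0.28 to 0.43 CPM lay above the level of 3 UMIs in every lot (0.056 to 0.106 CPM).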

Other observations

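Among the 4 clusters that stayed unnamed, cluster 12 (793 cells, led by Lypd1, Pax8 and Aldh1a3) had 634 ± 48.6 CPM of Fst (SD, n = 3 lots), 101 ± 8.42 of Inha and 26.2 ± 1.09 of Inhbb, with 1.53 CPM of Inhba. Cluster 13 (721 cells, with a median UMI count 0.24 times that of its lots) had 811 CPM of Fst, 79.2 of Inha and 49.4 of Inhbb. Its receptors were at 22.0 ± 5.75 CPM (Acvr1b), 49.4 ± 7.45 (Acvr2a) and 49.1 ± 6.24 (Acvr2b).

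Cluster 14 (422 cells, led by the Leydig genes Insl3, Cyp11a1 and Hsd3b1) had Inha at 276, 117 and 88.8 CPM in lots 26, 29 and 30 and Inhba at 33.9, 30.5 and 102 CPM, beside Fst at 102, 28.4 and 19.7 CPM. Lot 26 (130 cells) was thus highest in Inha and Fst and lot 30 (32 cells) in Inhba, with 260 cells in lot 29. Cluster 17 (135 cells, led by the myeloid genes Tyrobp and Lyz2) had 138 CPM of Fst and 12.1 of Inha.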
